A study of Mus musculus with 8 samples.

Results

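The cavernous malformation complex and its output through *Klf2* and *Klf4* were examined in brain endothelial cells (ECs) of pups with and without an activated *Map2k1* allele. The members are 10 genes taken by name, 10 of the 49315 gene identifiers in the counts: *Krit1*, *Ccm2*, *Pdcd10*, *Heg1*, *Map3k3*, *Map2k5*, *Mapk7*, *Mef2a*, *Klf2* and *Klf4*. Each matched 1 Ensembl identifier, and all 10 passed the filter on low counts. RNA sequencing gave 1 library for each of 4 mutant and 4 wild-type pups. Mutant pups carried R26GT-Map2k1-GFP/+, in which a CAG promoter at the *Rosa* locus drives a *Map2k1* cDNA with the K57N change once a stop cassette is removed, together with Tg-Cdh5CreER+/-, a tamoxifen-dependent Cre recombinase under the endothelial *Cdh5* promoter. All litters received tamoxifen at day 1 of life (P1), and brain ECs were bound to anti-CD31 beads at day 9 (P9). The controls are labelled wild type and came from the same litters. Recombination reached a minority of the brain ECs of a mutant pup, so a mutant library mixes recombined and unrecombined cells. Below, mutant ECs means all bead-bound cells of mutant pups, most of them unrecombined. The libraries do not show which of these cells carry a change. No group expressed unmutated *Map2k1* from the *Rosa* locus.

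KRIT1, CCM2 and PDCD10 form a cytoplasmic complex, which the transmembrane protein HEG1 anchors at endothelial junctions. The complex binds the kinase MEKK3 (*Map3k3*) and restrains it. MEKK3 activates MEK5 (*Map2k5*), MEK5 activates ERK5 (*Mapk7*), and ERK5 acts on MEF2 transcription factors, which induce *Klf2* and *Klf4*, transcription factors that respond to blood flow. Loss of *KRIT1*, *CCM2* or *PDCD10* causes cerebral cavernous malformation, in which KLF2 and KLF4 rise in brain ECs. MEK5 and ERK5 run parallel to MEK1 (*Map2k1*) and ERK1/2.

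*Klf2* and *Klf4* were lower in mutant ECs, at 30.4% and 37.9% of the wild-type level. *Heg1* was lower as well, at 63.4%, while *Ccm2* (141%) and *Pdcd10* (132%) were higher. *Krit1*, the kinase genes *Map3k3*, *Map2k5* and *Mapk7*, and *Mef2a* did not pass the test. In all, 5 of the 10 members were called, 2 higher and 3 lower, meaning that their p from edgeR's quasi-likelihood test was under 0.05 after Benjamini-Hochberg adjustment over all genes tested. Over all 16887 genes tested 44.4% were called, 21.5% higher and 22.9% lower, so the share of members called lies near that of all genes. *Klf2* and *Klf4* also passed a limit of 1 on the size of the log2 fold change, which 14% of all genes did, 5.9% higher and 8.05% lower. Of all genes tested, 472 had a lower log2 fold change than *Klf2* and 761 than *Klf4*. The median log2 fold change was -0.06 over the members and -0.02 over all genes. Values below are normalized counts, which are counts scaled by edgeR's TMM method to the mean library size, and replicates are given in the order 1 to 4.

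**Figure D1:**
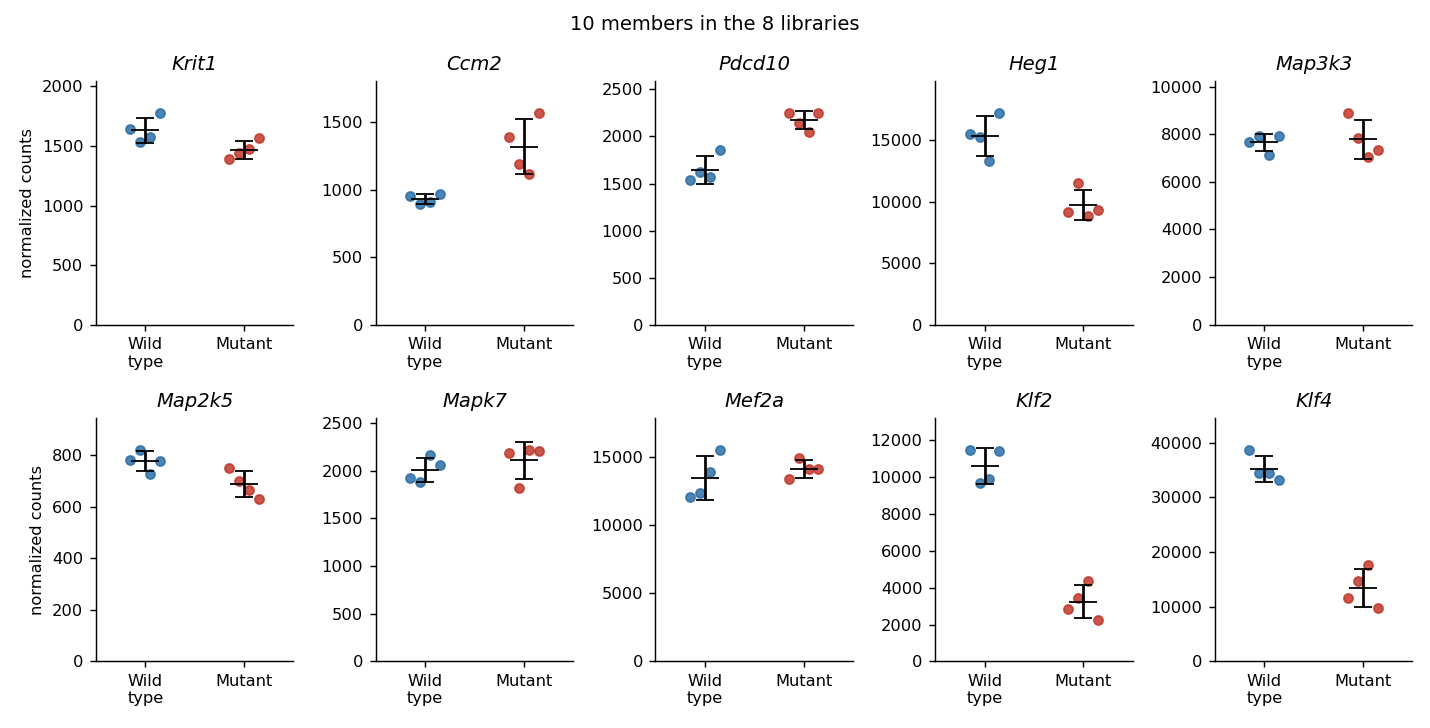
Normalized counts of the 10 members (y axes from 0) in the 4 wild-type (blue) and 4 mutant (red) libraries; the points of a group run from replicate 1 at the left to replicate 4, and the black bars give mean ± SD. Mutant and wild-type libraries are apart for *Ccm2*, *Pdcd10*, *Heg1*, *Klf2* and *Klf4*, and overlap for the other 5 genes.

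Between 24833373 and 34196955 reads were counted on genes in mutant libraries and between 28146348 and 32208421 in wild-type libraries, and each member had at least 592 counts in every library. *Map2k1*, the gene of the transgene, had 18734, 12692, 12707 and 14342 normalized counts in mutant and 1640, 1762, 1535 and 1506 in wild-type libraries, as the labels require. Libraries of the same group differed by more than sampling noise, so each was kept as a replicate. The 12 endothelial markers summed to 385873 to 465698 in mutant and 363653 to 440011 in wild-type libraries (p = 0.914 by an exact permutation test, two-sided, and adjusted p = 0.997 over 12 lists). Among markers of other cell types, the 6 oligodendrocyte genes summed to 818 to 1780 in mutant and 2719 to 8047 in wild-type libraries, the 6 red blood cell genes to 2582 to 8473 and 15764 to 27354, the 6 neuron genes to 576 to 831 and 883 to 1991, and the 6 astrocyte genes to 18380 to 22073 and 10758 to 12788. For each of these 4 lists the groups were apart, with p = 0.0286 by the exact permutation test, the least that 4 against 4 allow, and adjusted p = 0.0686 over 12 lists. *Gja1* made up most of the astrocyte sum, with means of 19462 in mutant and 11160 in wild-type libraries. It was the only astrocyte gene called higher, *Aldh1l1* was called lower, and the median log2 fold change of the 6 genes was -0.59, so the sum and the median differ in sign. No gene of these 4 lists had a group mean of 0, and all 6 oligodendrocyte and all 6 red blood cell genes were called lower. Sums of pericyte (21949 to 34899 and 19407 to 35180), smooth muscle (3178 to 8187 and 3866 to 8780), fibroblast (31488 to 40767 and 27756 to 36729), microglia and macrophage (4306 to 14985 and 4974 to 17540), platelet (349 to 554 and 376 to 476), and neutrophil and lymphocyte markers (245 to 459 and 319 to 647) overlapped between the groups, and their adjusted p lay between 0.171 and 1 in the same permutation test. The part of these cells in the results below was not tested, and in bulk RNA fewer cells of a type and less RNA per cell cannot be told apart.

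*Heg1* (ENSMUSG00000075254, plus strand of chromosome 16 of GRCm38, 33684466 to 33771576) encodes the transmembrane receptor that holds KRIT1 at junctions. It had 9177, 11519, 8871 and 9295 normalized counts in mutant and 15489, 15292, 13283 and 17227 in wild-type libraries. Every mutant library lay below every wild-type library, with mutant 2 the highest of the mutants. The means were 9715 ± 1215 (SD, n = 4) and 15323 ± 1614 (SD, n = 4), or -0.66 on the log2 scale (standard error 0.11), with an adjusted p of 0.000707 by the same edgeR test. Its exons share 318 bases with an antisense gene that held at most 5 counts in any library.

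*Krit1* (ENSMUSG00000000600, chromosome 5, 3803184 to 3845564, plus strand) encodes the subunit that binds HEG1. Its normalized counts were 1388, 1443, 1476 and 1565 in mutant and 1640, 1535, 1575 and 1778 in wild-type libraries. The ranges overlapped only between mutant 4 and wild type 2, and the gene did not pass the test (log2 fold change -0.15, standard error 0.07, adjusted p = 0.104). The 95% interval ran from 80.7% to 100% of the wild-type level. *Krit1* passed with upper quartile scaling (adjusted p = 0.0345) and with the label prefix as a block (adjusted p = 0.0468).

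*Ccm2* (ENSMUSG00000000378, chromosome 11, 6546887 to 6596744, plus strand) encodes the scaffold between KRIT1, PDCD10 and MEKK3. It had 1389, 1190, 1119 and 1569 normalized counts in mutant and 952, 895, 911 and 971 in wild-type libraries. The wild-type values lay close together and every mutant library was above them. The difference was 0.50 on the log2 scale, with a standard error of 0.11 and an adjusted p of 0.00334.

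*Pdcd10* (ENSMUSG00000027835, chromosome 3, 75516490 to 75556856, minus strand) encodes the subunit that binds kinases of the STK24 group. It had 2251, 2147, 2052 and 2248 normalized counts in mutant and 1535, 1626, 1566 and 1861 in wild-type libraries. The groups did not overlap. This was so for 5 of the 10 members, and for 42.5% of all genes tested, 20.6% higher and 21.9% lower in mutants. The difference was 0.40 on the log2 scale, with a standard error of 0.08 and an adjusted p of 0.00178.

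Ratios between the subunits were chosen after the values were seen, so they are given as a description, without a p-value. Counts on *Ccm2* amounted to 0.896 ± 0.124 (SD, n = 4) of those on *Krit1* among mutants against 0.572 ± 0.0174 (SD, n = 4) among wild types. Those on *Pdcd10* amounted to 1.48 ± 0.100 (SD, n = 4) of *Krit1* among mutants against 1.01 ± 0.0564 (SD, n = 4) among wild types. Within a library such ratios do not depend on the scaling, and both were higher in every mutant than in any wild type.

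*Ccm2l*, the paralog of *Ccm2* that is expressed in endothelium and also binds MEKK3, moved the other way. It had 3443, 4363, 3877 and 3125 normalized counts in mutant and 7056, 6675, 6396 and 7815 in wild-type libraries (log2 fold change -0.92, standard error 0.11, adjusted p = 0.000116). The ratio of *Ccm2l* to *Ccm2* counts was 2.48, 3.67, 3.46 and 1.99 in mutant and 7.41, 7.46, 7.02 and 8.05 in wild-type libraries. Since the groups did not overlap for either gene, their separation in this ratio follows from the values above.

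Of 18 genes whose products bind the complex or act beside it at junctions, 6 were higher and 2 lower, and 10 did not pass. The share called was 44.4%, as over all genes, with a median log2 fold change of 0.09. *Rnd3*, which encodes a small GTP-binding protein that opposes ROCK1, was 4.03-fold higher, at 3011 ± 634 (SD, n = 4) against 747 ± 121 (SD, n = 4) normalized counts (log2 fold change 2.01, adjusted p = 1.1e-05). *Arhgap29*, which encodes a GTPase-activating protein that acts downstream of Rap1 and RASIP1, rose 1.67-fold to 21504 ± 2792 (SD, n = 4), with adjusted p = 0.000554. *Rap1a*, a small GTPase that promotes the binding of KRIT1 to HEG1, rose 1.31-fold (adjusted p = 0.00108). The other genes called were *Pxn*, *Rock1* and *Rock2*, which were higher, and *Ccm2l* and *Stk24*, which were lower. *Cdc42*, a small GTPase among the most abundant of the list, stood at 17071 ± 376 (SD, n = 4) against 15259 ± 358 (SD, n = 4) among wild types and did not pass (adjusted p = 0.0557). *Stk24*, whose kinase is a partner of PDCD10, had a log2 fold change of -0.23 (adjusted p = 0.0076).

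**Figure D2:**
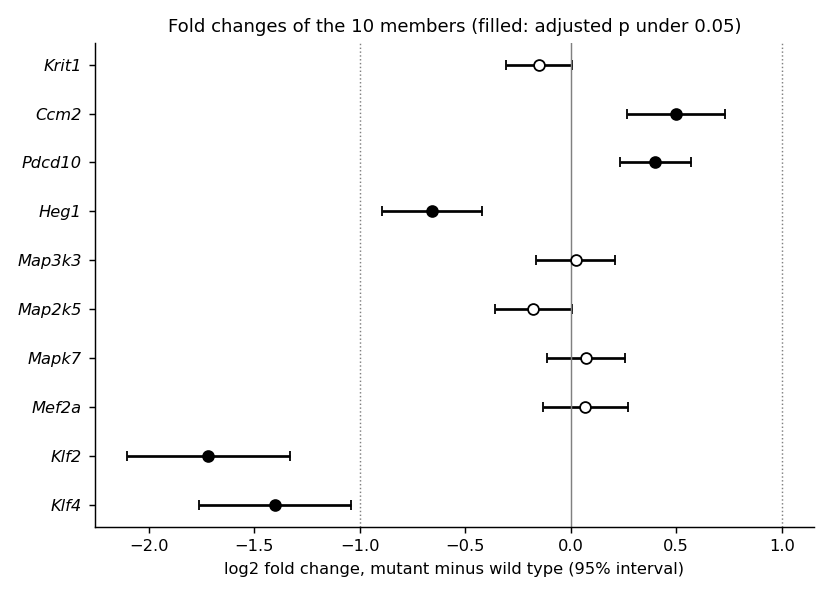
Log2 fold change of each member, mutant minus wild type (x axis), with its 95% interval from the edgeR fit; filled points had an adjusted p under 0.05, and dotted lines mark a log2 fold change of -1 and 1. *Klf2* (-1.72) and *Klf4* (-1.40) lie beyond -1, *Heg1* (-0.66), *Pdcd10* (0.40) and *Ccm2* (0.50) are called inside the lines, and the intervals of the 3 kinase genes cross 0.

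*Map3k3* (ENSMUSG00000020700, chromosome 11, 106084613 to 106155446, plus strand), which encodes MEKK3, had 8899, 7852, 7063 and 7333 normalized counts in mutant and 7679, 7917, 7136 and 7914 in wild-type libraries. The groups overlapped and the difference was 0.02 on the log2 scale, with a standard error of 0.08 and an adjusted p of 0.842. Its 95% interval ran from 89.3% to 116% of the wild-type level, and its sign turned under 3 alternatives.

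*Map2k5* (ENSMUSG00000058444, chromosome 9, 63163768 to 63377902, minus strand), which encodes MEK5, had 750, 701, 667 and 631 normalized counts in mutant and 780, 822, 727 and 779 in wild-type libraries. Only mutant 1 reached the wild-type range, and the gene did not pass the test (log2 fold change -0.18, standard error 0.08, adjusted p = 0.102, 95% interval 77.9% to 100% of the wild-type level). It passed with upper quartile scaling (adjusted p = 0.0206) and when 100 normalized counts were required on average (adjusted p = 0.0390).

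*Mapk7* (ENSMUSG00000001034, chromosome 11, 61488812 to 61494406, minus strand), which encodes ERK5, had 2190, 1816, 2222 and 2206 normalized counts in mutant and 1919, 1886, 2160 and 2056 in wild-type libraries. Mutant 2 was below all other libraries, and the groups overlapped (log2 fold change 0.07, standard error 0.08, adjusted p = 0.503, 95% interval 92.6% to 119%). *Mapk7* shares 89 exon bases with *Mfap4* on the opposite strand, which held 13 to 240 counts, and the use of strand in counting is not given in the sources used here.

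*Mef2a* (ENSMUSG00000030557, chromosome 7, 67231163 to 67372858, minus strand), a MEF2 factor that ERK5 activates, had 13344, 14903, 14116 and 14080 normalized counts in mutant and 12056, 12372, 13863 and 15527 in wild-type libraries. Wild types ranged more widely than mutants and spanned them (log2 fold change 0.07, standard error 0.09, adjusted p = 0.564, 95% interval 91.3% to 121%). A stretch of 302 exon bases overlaps *Lysmd4* on the opposite strand, which held 129 to 248 counts.

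Among 13 tested genes of 14 that act beside this cascade, 3 were higher and 6 lower, with a median log2 fold change of -0.09. The share called was 69.2%, against 44.4% of all genes tested, 21.5% higher and 22.9% lower. *Mef2b* did not pass the filter on low counts. *Hdac5*, a class IIa histone deacetylase that represses MEF2, fell to 1889 ± 167 (SD, n = 4) from 3910 ± 335 (SD, n = 4) normalized counts (log2 fold change -1.05, adjusted p = 1.41e-05). *Hdac9*, of the same class, rose 3.02-fold to 467 ± 176 (SD, n = 4), with mutant 1 at 726 and the other mutants at 332 to 425 (log2 fold change 1.59, adjusted p = 0.000448). *Hdac7*, the class IIa member abundant in endothelium, was at 5724 ± 832 (SD, n = 4) against 7718 ± 1026 (SD, n = 4), with adjusted p = 0.0165. *Gab1*, an adaptor upstream of ERK5, was 1.76-fold lower (adjusted p = 0.000122). *Map3k1*, a MAP3K of the same family as MEKK3, was 1.74-fold lower (adjusted p = 0.000224). *Sgk1*, a kinase that ERK5 phosphorylates, did not pass (log2 fold change 0.02, adjusted p = 0.893). Of the other MEF2 genes, in a comparison chosen after the values were seen, *Mef2c* rose 1.38-fold (adjusted p = 0.000637) and *Mef2d* did not pass (log2 fold change -0.09, adjusted p = 0.349). *Map3k2*, which encodes MEKK2 and can also activate MEK5, had a log2 fold change of 0.16 (adjusted p = 0.361).

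*Klf2* (ENSMUSG00000055148, chromosome 8, 72319033 to 72321656, plus strand) is induced by laminar flow and supports an anti-thrombotic, anti-inflammatory endothelium. It had 2848, 3461, 4347 and 2271 normalized counts in mutant and 11498, 9688, 9873 and 11428 in wild-type libraries. The highest mutant held less than the lowest wild type by a wide gap, and mutant 4 was the lowest and mutant 3 the highest of the mutants. The means were 3232 ± 888 (SD, n = 4) and 10622 ± 975 (SD, n = 4), 3.29-fold lower in mutant ECs (log2 fold change -1.72, standard error 0.17, adjusted p = 4.38e-05).

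*Klf4* (ENSMUSG00000003032, chromosome 4, 55527143 to 55532466, minus strand) acts on many of the same endothelial targets. It had 11530, 14640, 17565 and 9716 normalized counts in mutant and 38756, 34442, 34493 and 33268 in wild-type libraries. Mutants again ranked 3, 2, 1 and 4 from high to low, and none reached the wild-type range. The means of 13363 ± 3462 (SD, n = 4) and 35240 ± 2412 (SD, n = 4) differed 2.64-fold (log2 fold change -1.40, standard error 0.16, adjusted p = 0.000101).

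The promoters of the 3 members that fell are shown as 300-base windows, from 250 bases before to 50 after the start site, so that their MEF2 and KLF motifs can be compared. They are RefSeq sequences of build GRCm38.p6, written 5′ to 3′ along the gene. A run of 10 capitals marks a match to the MEF2 consensus, the motif of the factors downstream of ERK5. Runs of 5 capitals mark CACCC, the core bound by KLF factors, or GGGTG, the same motif on the other strand.
*Klf2*, chr8:72318812-72319111, plus strand: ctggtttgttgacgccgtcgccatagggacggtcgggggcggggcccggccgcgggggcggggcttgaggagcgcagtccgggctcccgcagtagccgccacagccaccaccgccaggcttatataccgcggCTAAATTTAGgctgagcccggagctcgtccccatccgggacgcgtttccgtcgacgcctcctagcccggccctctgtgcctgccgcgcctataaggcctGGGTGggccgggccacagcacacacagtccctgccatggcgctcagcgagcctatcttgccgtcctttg
*Klf4*, chr4:55532426-55532725, minus strand: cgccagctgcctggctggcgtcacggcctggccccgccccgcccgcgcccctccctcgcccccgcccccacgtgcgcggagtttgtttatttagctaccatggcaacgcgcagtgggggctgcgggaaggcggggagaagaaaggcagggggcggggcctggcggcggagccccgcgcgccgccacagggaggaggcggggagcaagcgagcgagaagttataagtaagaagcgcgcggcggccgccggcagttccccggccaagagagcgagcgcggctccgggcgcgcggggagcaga
*Heg1*, chr16:33684216-33684515, plus strand: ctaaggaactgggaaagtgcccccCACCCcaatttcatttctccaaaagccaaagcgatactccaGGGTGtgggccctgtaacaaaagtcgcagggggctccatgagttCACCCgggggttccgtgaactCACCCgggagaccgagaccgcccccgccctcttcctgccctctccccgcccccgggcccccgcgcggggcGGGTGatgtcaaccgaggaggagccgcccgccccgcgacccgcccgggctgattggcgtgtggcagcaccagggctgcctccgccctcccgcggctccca
The *Klf2* window held 1 MEF2 match, which begins 118 bases before the start site and reads the same on both strands, and 1 CACCC match. No match to either motif was found in the *Klf4* window. The *Heg1* window held 5 CACCC matches and no MEF2 match, and the 2 overlapping windows of *Mapk7*, which did not fall, also held 5 each. Among all 32851 promoters of that length, 3.19% held a MEF2 match, 57.5% a CACCC match and 1.02% at least 5 of the latter. Windows were found for all 10 members, 13 in all, and the only other MEF2 match was in that of *Mef2a*. CCGGAA, a core bound by ETS factors, was in 14.9% of all promoters. It was found with 2 matches in each window of *Krit1* and *Map2k5*, and with 1 in those of *Pdcd10* and *Mef2a* and in 1 of the 2 windows of *Ccm2*.

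*Klf2* and *Klf4* varied together among mutant libraries, and less clearly among wild types. After the mean of each group was subtracted from log2 CPM, Pearson's r between them was 0.945 over the 8 libraries, which also share their depth and handling. The counts on *Klf2* amounted to 0.247, 0.236, 0.247 and 0.234 of those on *Klf4* in mutant and 0.297, 0.281, 0.286 and 0.344 in wild-type libraries. *Klf2* was thus lower relative to *Klf4* in every mutant than in any wild type. This ratio was again chosen with the values known and is given without a p-value. With *Klf4* as partner, 14 of 11399 genes that averaged 100 normalized counts or more were more like *Klf2*, and with *Klf2* as partner 34 were more like *Klf4*. The most like *Klf2* within groups were *Fbxo22* (r = 0.991), *Dpp4* (0.985), *Pcdhga3* (0.970), *Kbtbd7* (0.963) and *Ctso* (0.962), and the most like *Klf4* were *Srms* (0.991), *Hhex* (0.988), *Abat* (0.980), *Grb14* (0.977) and *Car4* (0.971). These genes were picked for their r from 11399 over only 8 libraries, so high values follow in part from the selection. Across all 8 libraries without that subtraction r was -0.12 for *Pcdhga3* with *Klf2*, while the other 9 genes had r from 0.980 to 0.999. Those 9 were all called lower in mutants, so that r also holds the difference between the groups.

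The sample descriptions carry 3 prefixes whose meaning the labels do not give, each shared by mutant and wild-type pups. Within the prefix of replicates 1 and 2 the log2 ratio of mutant to wild-type means was -1.75 for *Klf2* and -1.48 for *Klf4*, within that of replicate 3 it was -1.18 and -0.97, and within that of replicate 4 it was -2.33 and -1.78. The same ratios were -0.57, -0.58 and -0.89 for *Heg1*, 0.48, 0.30 and 0.69 for *Ccm2*, and 0.48, 0.39 and 0.27 for *Pdcd10*. Each of the 5 members called had the same direction in every prefix. Since their groups did not overlap, this follows from the values above, and only the sizes add to them. Replicates 3 and 4 give 1 library per group.

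*Klf2* and *Klf4* are also immediate early genes that rise during tissue dissociation, so 20 dissociation and immediate early genes were read beside them. Of these, 16 were lower and 4 did not pass, 80% called, with a median log2 fold change of -0.70. Of all genes tested 44.4% were called, 22.9% lower. The list was written with earlier results of these data known. The summed level of the 20 genes was 297174, 288210, 338424 and 209513 in mutant and 550179, 527048, 453901 and 433056 in wild-type libraries. Every mutant thus lay below every wild type (p = 0.0286 by the exact permutation test, adjusted p = 0.0686 over 12 lists). Mutant 3 held the highest and mutant 4 the lowest sum among mutants, as for both KLF genes, while mutants 1 and 2 were in the opposite order. Wild type 1 was the highest wild type for the sum and for both genes. Wild type 4 was the lowest for the sum and *Klf4*, but held more *Klf2* than wild types 2 and 3. *Fos* was 2.37-fold, *Jun* 2.18-fold and *Nr4a1* 2.52-fold lower, with adjusted p of 0.000239, 0.00016 and 0.000237. The heat shock genes *Hspa1a* and *Hspa1b*, near-identical copies whose reads may be split between them, were 5.71-fold and 5.96-fold lower. *Fosb* and *Junb*, the most abundant of the list, had log2 fold changes of -0.78 and -0.63 (adjusted p = 0.00171 and 0.0272). The part of dissociation in the fall of *Klf2* and *Klf4* was not tested.

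**Figure D3:**
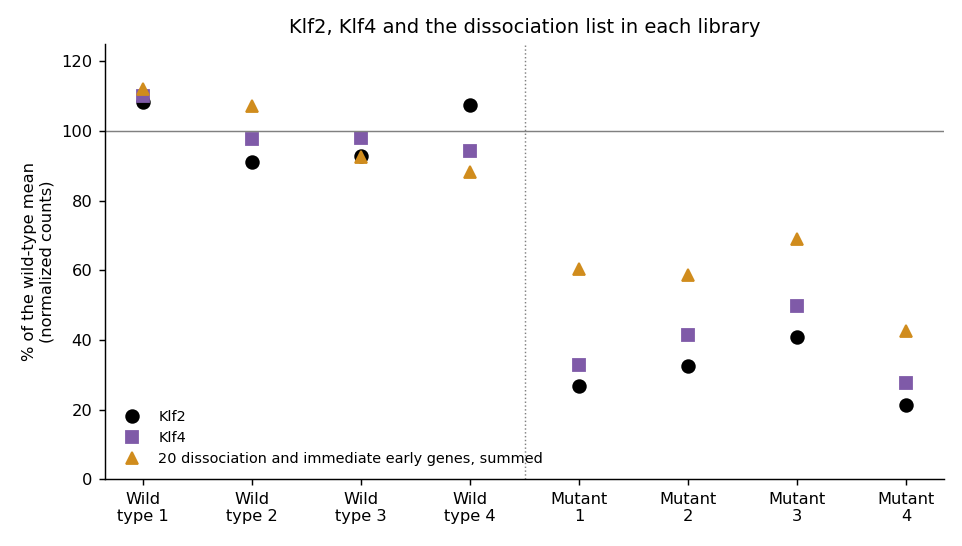
Level of *Klf2* (circles), *Klf4* (squares) and the sum of 20 dissociation and immediate early genes (triangles) in each library, as percent of the wild-type mean of normalized counts (y axis). Mutants held 21.4% to 40.9% for *Klf2*, 27.6% to 49.8% for *Klf4* and 42.7% to 68.9% for the list, all below the wild types.

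Within the KLF family, 12 of the other 15 genes were tested, and 3 were lower while 9 did not pass. The share called was 25%, against 44.4% of all genes tested, 22.9% lower. *Klf12* fell from 571 ± 53.1 (SD, n = 4) to 275 ± 44.2 (SD, n = 4) normalized counts (log2 fold change -1.05, adjusted p = 0.000143). *Klf11* (-0.96) and *Klf10* (-0.77), repressors induced by TGF-beta, were lower too (adjusted p = 0.00153 and 0.00118). *Klf6*, which is also induced by dissociation, had 28303, 27795, 32783 and 25666 normalized counts in mutant and 27548, 26911, 29069 and 28729 in wild-type libraries, and did not pass (log2 fold change 0.03, adjusted p = 0.805). *Klf7* (0.20) and *Klf13* (-0.11) did not pass either (adjusted p = 0.0652 and 0.385). *Klf1*, *Klf14* and *Klf17* did not pass the filter on low counts.

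Genes that KLF2 and KLF4 are known to induce moved in both directions. Of 23 tested genes of 24, 12 were lower and 6 higher, with a median log2 fold change of -0.27. The share called was 78.3%, against 44.4% of all genes tested. When genes averaging under 100 normalized counts were left out, 6171 of 11395 genes were called. This list, like the others, was written with earlier results of these data known, so its share is a description only. *Nos3*, which encodes endothelial nitric oxide synthase, and *Thbd*, which encodes the anticoagulant thrombomodulin, are textbook targets. *Thbd* had 2625, 3266, 3354 and 2791 normalized counts in mutant and 4705, 4506, 4260 and 4798 in wild-type libraries (log2 fold change -0.60, adjusted p = 0.00042), and *Nos3* had 13538, 16110, 14515 and 14011 against 23473, 22000, 18467 and 21321 (log2 fold change -0.55, adjusted p = 0.000835). Both were named after their values were seen, and for both the groups did not overlap. *Slc9a3r2*, a scaffold protein of the cell membrane, was 2.71-fold lower (adjusted p = 0.0001), *Fbln5*, an elastic fibre protein, 2.51-fold lower (adjusted p = 4.04e-05) and *Podxl*, a sialomucin of the luminal membrane, 2.33-fold lower (adjusted p = 0.000102). Other genes of the same list rose. *Plvap*, the diaphragm protein of fenestrae and caveolae, was 9.56-fold higher (adjusted p = 5.78e-06), *Ch25h*, which encodes cholesterol 25-hydroxylase, 5.25-fold (adjusted p = 6.66e-06), *Timp3*, a metalloprotease inhibitor, 3.35-fold (adjusted p = 4.62e-06) and *Procr*, the endothelial protein C receptor, 2.61-fold (adjusted p = 9.5e-05). *Cdh5*, the junction protein VE-cadherin and also 1 of the endothelial markers above, was 2.15-fold higher (adjusted p = 6.04e-05). *Adamts1* stood at 66212 ± 8642 (SD, n = 4) against 79287 ± 2795 (SD, n = 4) and did not pass (adjusted p = 0.0575).

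Of 16 genes that KLF2 or KLF4 are known to repress or oppose, all tested, 8 were higher and 3 lower, 68.8% called, with a median log2 fold change of 0.68. *Thbs1*, an inhibitor of angiogenesis, rose 4.88-fold (adjusted p = 3.62e-05), from 909, 1303, 1866 and 1006 normalized counts in wild-type to 4748, 6493, 6049 and 7534 in mutant libraries. *Angpt2*, a ligand of the TIE2 receptor, rose 4.07-fold (adjusted p = 3.86e-05) and *Sele*, the leukocyte adhesion receptor E-selectin, 3.58-fold (adjusted p = 8.54e-05). The matricellular gene *Ccn2* rose 2.18-fold (adjusted p = 9.16e-05). *Ccl2*, a monocyte chemokine, was 2.96-fold higher (adjusted p = 0.0132), with overlapping groups. *Cxcl12*, a chemokine, fell furthest of the list, with 1228, 3703, 4547 and 1957 normalized counts in mutant and 19460, 19885, 12796 and 19038 in wild-type libraries (log2 fold change -2.64, adjusted p = 0.000252). *Kdr*, the main VEGF receptor and also 1 of the endothelial markers, had a log2 fold change of -0.59 (adjusted p = 0.00177), and *Icam1* did not pass (log2 fold change -0.06, adjusted p = 0.782). Of 2 further well-known targets of this list, also named after their values were seen, *Edn1*, which encodes the vasoconstrictor endothelin, was lower (log2 fold change -0.81, adjusted p = 0.00304), and *Vcam1*, a leukocyte adhesion receptor, did not pass (log2 fold change -0.07, adjusted p = 0.821).

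**Figure D4:**
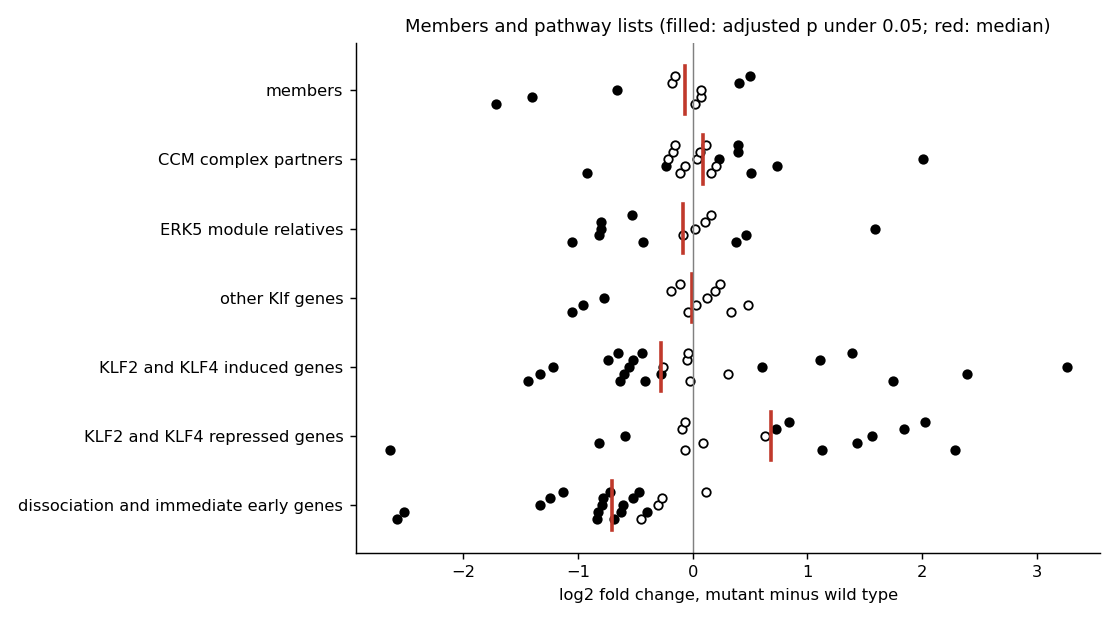
Log2 fold change, mutant minus wild type (x axis), of every tested gene of the members and of 6 lists (rows); filled points had an adjusted p under 0.05 and red lines are list medians. Medians run from -0.70 for the dissociation and immediate early genes to 0.68 for the genes that KLF2 or KLF4 repress, with the members at -0.06.

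Compared per kilobase of counted exon length, as RPKM with TMM-scaled library sizes, *Klf4* had the highest level of the members in both groups, at 148 ± 38.3 (SD, n = 4) among mutants against 389 ± 26.6 (SD, n = 4) among wild types. In wild-type ECs *Klf2* followed at 194 ± 17.8 (SD, n = 4), then *Map3k3* at 64.2 ± 3.08 (SD, n = 4) and *Heg1* at 40.9 ± 4.30 (SD, n = 4). In mutant ECs *Klf2*, at 59.0 ± 16.2 (SD, n = 4), was no longer apart from *Map3k3*, at 65.2 ± 6.79 (SD, n = 4), and their gap was smaller than the sum of their SDs. The remaining order per kilobase in wild-type ECs was *Mef2a* (30.9), *Pdcd10* (18.9), *Mapk7* (15.4), *Ccm2* (8.57), *Map2k5* (8.08) and *Krit1* (2.52), and *Ccm2* and *Map2k5* were the only neighbours whose gap was within the sum of their SDs. In mutant ECs *Heg1* (25.9) came after *Mef2a* (32.4) and was not apart from *Pdcd10* (24.9), while *Ccm2* (12.1) stood above *Map2k5* (7.15). Counted length is the union of all annotated exons, 21853 bases for *Krit1*, so levels per kilobase depend on the annotation. With the longest protein-coding transcript as the length instead, a length tried once the values were known, *Klf4* stayed first and *Krit1* last in both groups, and *Klf2* ranked 2 in wild-type and 4 in mutant ECs, behind *Mef2a* and *Map3k3*.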

How the data were processed

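Libraries (8, 1 per pup) were grouped by their titles. Read trimming (Trimmomatic) and mapping to GRCm38 (STAR) were done by GeneWiz for the authors, according to the paper. The authors deposited unnormalized counts for each Ensembl gene beside exon positions and lengths. The counting program, annotation release and use of strand are not given in the sources used here. The authors' normalized values, for which the submitters' processing notes name DESeq2, were not used. Symbols were taken from GENCODE vM21 (48970 of 49315 identifiers) and promoters from RefSeq (GRCm38.p6).

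Counts were fitted in R 4.3.3 with edgeR 4.0.16 (TMM, filterByExpr with minimum count 10, glmQLFit, glmQLFTest, no covariate), and p was adjusted over all 16887 genes by the method of Benjamini and Hochberg. Standard errors are the fold change divided by the square root of F. A gene was called at an adjusted p under 0.05. Sums were tested by exact permutation over libraries. The members, gene lists and tests were chosen with earlier results of these data known. Named genes are the members and, of each list, genes called with an absolute log2 fold change over 1, the 4 of smallest adjusted p and the 2 of highest mean. For *Klf2* and *Klf4* the 5 genes of highest correlation were also named. A gene that this rule names is not reported here. The MEF2 consensus, CACCC and CCGGAA were searched on both strands. Alternatives were DESeq2 1.42.0, upper quartile and size factor scaling, filters on low counts, blocks, and each library left out in turn. P-values measure the spread between pups.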

Additional observations from a re-analysis of the deposited data

Results flagged for a closer look

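In 6 of 130 groups of 4 libraries examined, 1 library lay further from the other 3 than the 95% limit of Dixon's test allows, and chance alone flags about 1 in 20 such groups. Mutant 2 held 11519 normalized counts on *Heg1*, where the other mutants held 8871 to 9295. The same library held 1816 on *Mapk7*, where the others held 2190 to 2222, and 9227 on *Sele*, where the others held 7031 to 7230. Wild type 4 held 5644 on *Angpt2*, above the other wild types at 3080 to 3518. Wild type 3 held 12796 on *Cxcl12*, below the other wild types at 19038 to 19885, and the lowest sum of endothelial markers, at 363653 against 427186 to 440011. *Klf2*, *Klf4*, *Ccm2* and *Pdcd10* had no such library in either group.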

How the results depend on the processing

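Over 15 alternatives the 10 members gave 150 log2 fold changes, of which 143 kept both their direction and their side of the threshold. *Klf2* (log2 fold change -1.88 to -1.56), *Klf4* (-1.55 to -1.25), *Heg1* (-0.75 to -0.60), *Ccm2* (0.43 to 0.58) and *Pdcd10* (0.34 to 0.46) were called under every one of them. The number of members called was 7 with upper quartile scaling, 6 when the label prefix was a block and 6 when genes under an average of 100 normalized counts were left out, where *Krit1* or *Map2k5* also passed. *Map3k3* turned sign with upper quartile scaling (-0.041), without mutant replicate 1 (-0.022) and without wild type replicate 3 (-0.0052), and stayed between -0.022 and 0.075 with each library left out. Leaving out genes under that average leaves fewer genes to test and lowered the differentially expressed genes from 2356 to 1194. As a mean of log2 CPM in place of a sum, the difference turned sign for pericytes (0.34), astrocytes (-0.37) and platelets (-0.058), and the cause was not tested. For neurons it kept its sign (-1.29), but p by the exact permutation test was 0.0857, where the sum gave 0.0286. With the replicate number as a block (replicate block) 8162 genes and 5 members were called. Same-numbered libraries correlated between 0.0241 and 0.290 in their deviations, 2 of 4 mutants correlated best with their own number, and the labels do not say that a number pairs pups. Of the scalings, upper quartile moved the median log2 fold change of all genes furthest, by -0.062, and the share of called genes that were higher from 48.4% to 40.7%. With each library left out, 5 members were called every time.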
